A study of Mus musculus with 21 samples.

Results

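Aquaporins are small membrane channels that let water follow salt across a cell layer, and a subset of them, the aquaglyceroporins, also pass glycerol. In the colon, water is taken back from the gut contents by the surface epithelium, where the gradient is built by sodium and chloride uptake and the channels set how easily water follows. Aqp8 is the channel of the apical membrane of surface colonocytes, Aqp4 and Aqp3 lie in the basolateral membrane of epithelial cells, and Aqp1 is the channel of endothelium and red cells. Aqp11 belongs to a divergent branch found on intracellular membranes, Aqp7 is the glycerol channel of fat cells, and Aqp5 is the apical channel of secretory glands.

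The 7 aquaporin genes described here (Aqp1, Aqp3, Aqp4, Aqp5, Aqp7, Aqp8 and Aqp11) were picked by gene symbol from the 24062 genes of a count table of mouse colon. The list was made with earlier results of these data known and does not hold every mouse aquaporin. RNA was sequenced from 21 libraries of C57BL/6 colon in 7 groups of 3. Wild-type males, males with the App NL-G-F knock-in of the amyloid precursor protein gene, and wild-type females each gave normal colon and AOM/DSS tumours, and knock-in females gave normal colon. AOM is the carcinogen azoxymethane and DSS, dextran sulfate sodium, an agent that damages the epithelium and inflames the colon. The labels call the normal libraries untreated, while the design text mentions tissue adjacent to tumours, or colon of mice that formed none. The series asks why the treatment ended differently in the App mutant background. Age, pooling and whether libraries come from separate animals are not given in the sources used here, so the p-values measure only the spread between these samples, which may be technical. Library totals ran from 3414123 counts (wild-type male tumour 2) to 26174008 (wild-type female normal 1). Levels are given as CPM, counts scaled to a common library size with TMM factors. A floor of 3 counts, which covers counting error only, stood at 0.127 to 0.873 CPM.

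Several libraries were high in markers of tissue other than colon mucosa, and the source of that RNA was not tested. Markers of squamous epithelium, the stratified lining found beyond the anal margin, were high in 7 libraries of 5 groups: the keratin Krt5 was above 100 CPM there (107 to 736 CPM) and at most 35.1 CPM in the other 14. Knock-in male tumour 3 summed 3239 CPM over 10 skeletal muscle markers, where no other library passed 61.4 CPM. Wild-type female normal colon stood apart as well, with 105 to 143 CPM summed over 12 endothelial markers against 219 to 433 CPM in the other groups, and with 2.84% to 3.18% of counts on the ribosomal transcript Rn45s against 4.85% to 14.1%. The defining markers of colon epithelium were present in every library, with a summed level of 6586 to 12735 CPM over 12 pan-epithelial markers, none of which was at 0 in all 3 libraries of a group. Of these, 8 were lower and 1 higher in wild-type male tumours than in normal colon (35.7% of all tested genes were called). In knock-in male tumours 1 was lower and 1 higher (20.4%), and in wild-type female tumours 11 were lower and 1 higher (49.1%). Their part in the aquaporin results was not tested.

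Promoter sequence is shown for Aqp8 and Aqp11, the pair of aquaporins whose levels ran closest together over the libraries, and for Aqp3, whose pattern differed from both. The stretches end at the base before the RefSeq transcription start (GRCm38.p6), except that of Aqp11, which ends before an annotated GENCODE start lying 42 bases further upstream. Each is written 5′ to 3′ on the coding strand, and capitals mark motif matches.
Aqp8, chr7:123462044-123462293, plus strand: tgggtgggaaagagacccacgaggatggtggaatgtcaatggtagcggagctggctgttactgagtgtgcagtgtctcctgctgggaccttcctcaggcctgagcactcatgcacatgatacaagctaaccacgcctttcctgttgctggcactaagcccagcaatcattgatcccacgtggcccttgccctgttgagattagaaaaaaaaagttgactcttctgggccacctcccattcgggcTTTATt
Aqp11, chr7:97738290-97738497, minus strand: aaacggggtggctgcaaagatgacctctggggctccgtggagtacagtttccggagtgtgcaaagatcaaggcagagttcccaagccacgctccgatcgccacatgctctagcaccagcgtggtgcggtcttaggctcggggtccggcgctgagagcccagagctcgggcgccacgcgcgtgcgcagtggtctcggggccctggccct
Aqp3, chr4:41098184-41098433, minus strand: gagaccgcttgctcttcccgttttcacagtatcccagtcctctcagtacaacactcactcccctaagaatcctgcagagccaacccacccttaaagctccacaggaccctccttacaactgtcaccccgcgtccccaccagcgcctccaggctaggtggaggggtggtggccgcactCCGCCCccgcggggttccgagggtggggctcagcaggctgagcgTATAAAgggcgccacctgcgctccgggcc

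Both strands of the printed stretches (250 bases, and 208 for Aqp11) were searched for a TATA box (TATAAA), a GC box (GGGCGG), the core letters of Cdx sites (TTTAT; Cdx factors are intestinal homeobox proteins) and a TCF/LEF site (ATCAAAG, the site of the Wnt pathway). Aqp3 held a TATA box 29 bases and a GC box on the minus strand 73 bases before its start, and the minus-strand TTTAT there lies inside the TATA box. Aqp8 held TTTAT 6 bases before its start and no other match, and Aqp11 held none of the 4 motifs. Among 32851 windows of 250 bases, 12.4% held the TATA box, 32.7% the GC box, 37.3% the Cdx letters and 3.21% the TCF/LEF site. A match is a description of letters and shows no bound factor.

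Of the 7 aquaporins, 5 passed the low-count filter that left 15936 genes for the test. Aqp7 had 1 to 9 counts in every library and Aqp5 0 to 9 counts in 20 of them, and neither could be followed at this depth. Levels of different genes are compared here only per kilobase of the longest annotated transcript. On that scale, Aqp8 had the highest mean of the 7 genes in each group of normal colon. It was at 215 ± 136 CPM per kb (SD, n = 3) in wild-type females, 141 ± 15.7 in knock-in females, 90.4 ± 63.5 in wild-type males and 36.3 ± 9.87 in knock-in males. In the single library knock-in male normal 2, Aqp4 led instead, at 45.0 CPM per kb against 32.9 for Aqp8. Aqp4 came next in wild-type females, at 88.3 ± 56.7 CPM per kb, and in wild-type males, at 29.2 ± 5.10 beside 25.0 ± 2.16 for Aqp1. Aqp1 had its highest group mean in knock-in female normal colon, at 28.1 ± 2.71 CPM per kb, where Aqp4 was at 10.6 ± 5.66. Aqp11 stayed between 0.456 and 2.55 CPM per kb in the group means. These are levels of RNA and not of channels in the membrane.

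The make-up of the 7 genes differed between normal colon and tumour. Aqp8 held 55.6% ± 15.2 (SD, n = 3) of their summed CPM per kb in wild-type male normal colon, 67.5% ± 6.63 in wild-type females, 75.8% ± 5.58 in knock-in females and 42.1% ± 15.2 in knock-in males. In tumours its share was 10.2% ± 5.76 in wild-type males, 5.51% ± 3.07 in wild-type females and 12.5% ± 6.13 in knock-in males. By group mean the leading aquaporin was then Aqp1 in wild-type male tumours (59.7% ± 11.4) and Aqp4 in wild-type female (50.8% ± 9.88) and knock-in male tumours (37.3% ± 5.08). Single libraries differed from that: Aqp1 led in wild-type female tumour 3 (49.6% against 40.9% for Aqp4), and Aqp3 led in knock-in male tumour 2 (34.4% against 31.8%), a library high in squamous markers. The summed level itself was 20.5 ± 0.791 CPM per kb in wild-type male tumours, 32.4 ± 5.22 in wild-type female tumours and 67.4 ± 24.9 in knock-in male tumours. The means of the normal groups were 88.0 to 315 CPM per kb. Libraries of knock-in male tumours (50.7 to 96.0 CPM per kb) overlapped those of knock-in male normal colon (79.4 to 101).

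**Figure D1:**
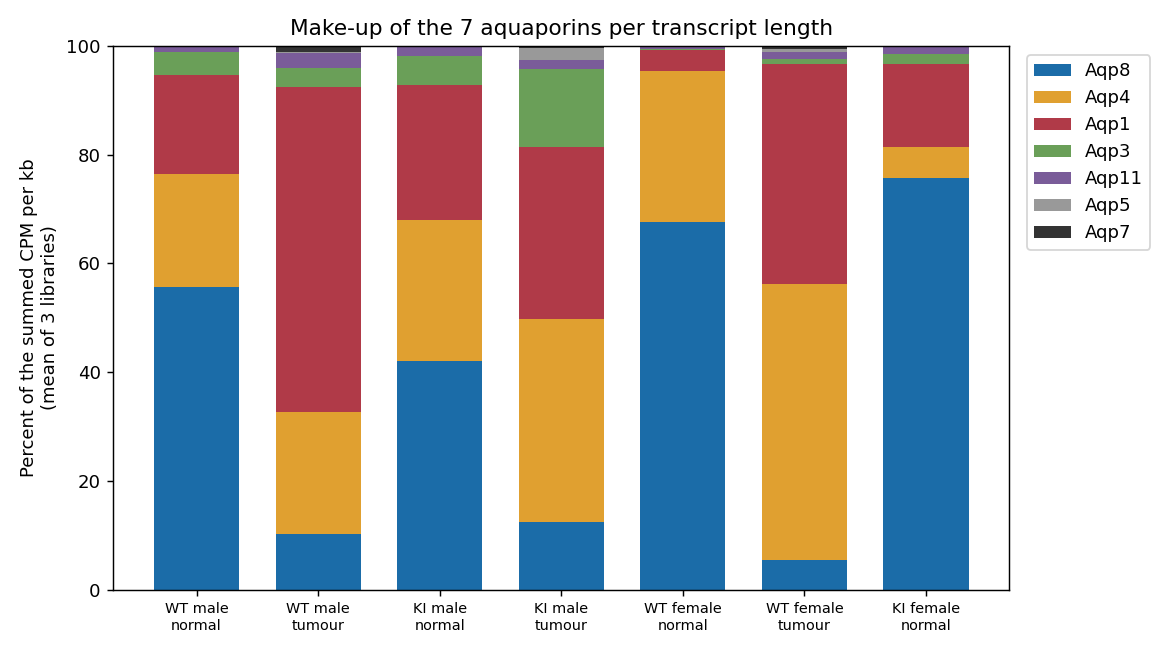
Stacked bars give each aquaporin's share, in percent, of the summed CPM per kb of the 7 genes, as the mean of 3 libraries in each of 7 groups (WT, wild type; KI, App NL-G-F knock-in). Aqp8 holds 42.1% to 75.8% in the 4 normal groups and 5.51% to 12.5% in the 3 tumour groups.

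The first comparison asks what distinguishes wild-type male tumours from normal colon. Aqp8, Aqp4, Aqp11 and Aqp1 all fell, 4 of the 5 aquaporins tested, where 35.7% of all tested genes were called in either direction and 19.3% as lower. The libraries of these 4 did not overlap between the groups, as was so for 52.4% of all tested genes. Aqp8 was at 80.1, 79.8 and 243 CPM in normal colon (replicates 1, 2 and 3) and at 3.60, 1.16 and 4.70 CPM in tumours. Every tumour library lay far below every normal library. The fall was 37.7-fold, a log2 change of -5.24 ± 0.61 (SE; edgeR quasi-likelihood test, adjusted p = 2.3e-05). In bulk tissue, fewer cells that carry a gene and less of its RNA per cell cannot be told apart.

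Aqp4, the basolateral water channel, was at 120, 151 and 171 CPM in normal colon and at 28.2, 19.5 and 22.3 CPM in tumours. The groups did not overlap, and the log2 change was -2.64 ± 0.54 (edgeR adjusted p = 0.0017). Aqp11 was lower and more spread, at 8.31, 5.62 and 13.5 CPM in normal colon and 4.10, 2.04 and 3.78 CPM in tumours. Its highest tumour library stayed under its lowest normal library, and its log2 change was -1.39 ± 0.29 (edgeR adjusted p = 0.00131). The Aqp11 value of tumour 2 rests on 7 counts and the Aqp8 value there on 4. Aqp1 was at 71.6, 60.3 and 65.1 CPM in normal colon and 27.2, 37.0 and 31.7 CPM in tumours, a tight separation of 2.07-fold (log2 change -1.05 ± 0.18, edgeR adjusted p = 0.000242). The median log2 change was -2.64 over the 5 aquaporins and 0.01 over all tested genes.

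**Figure D2:**
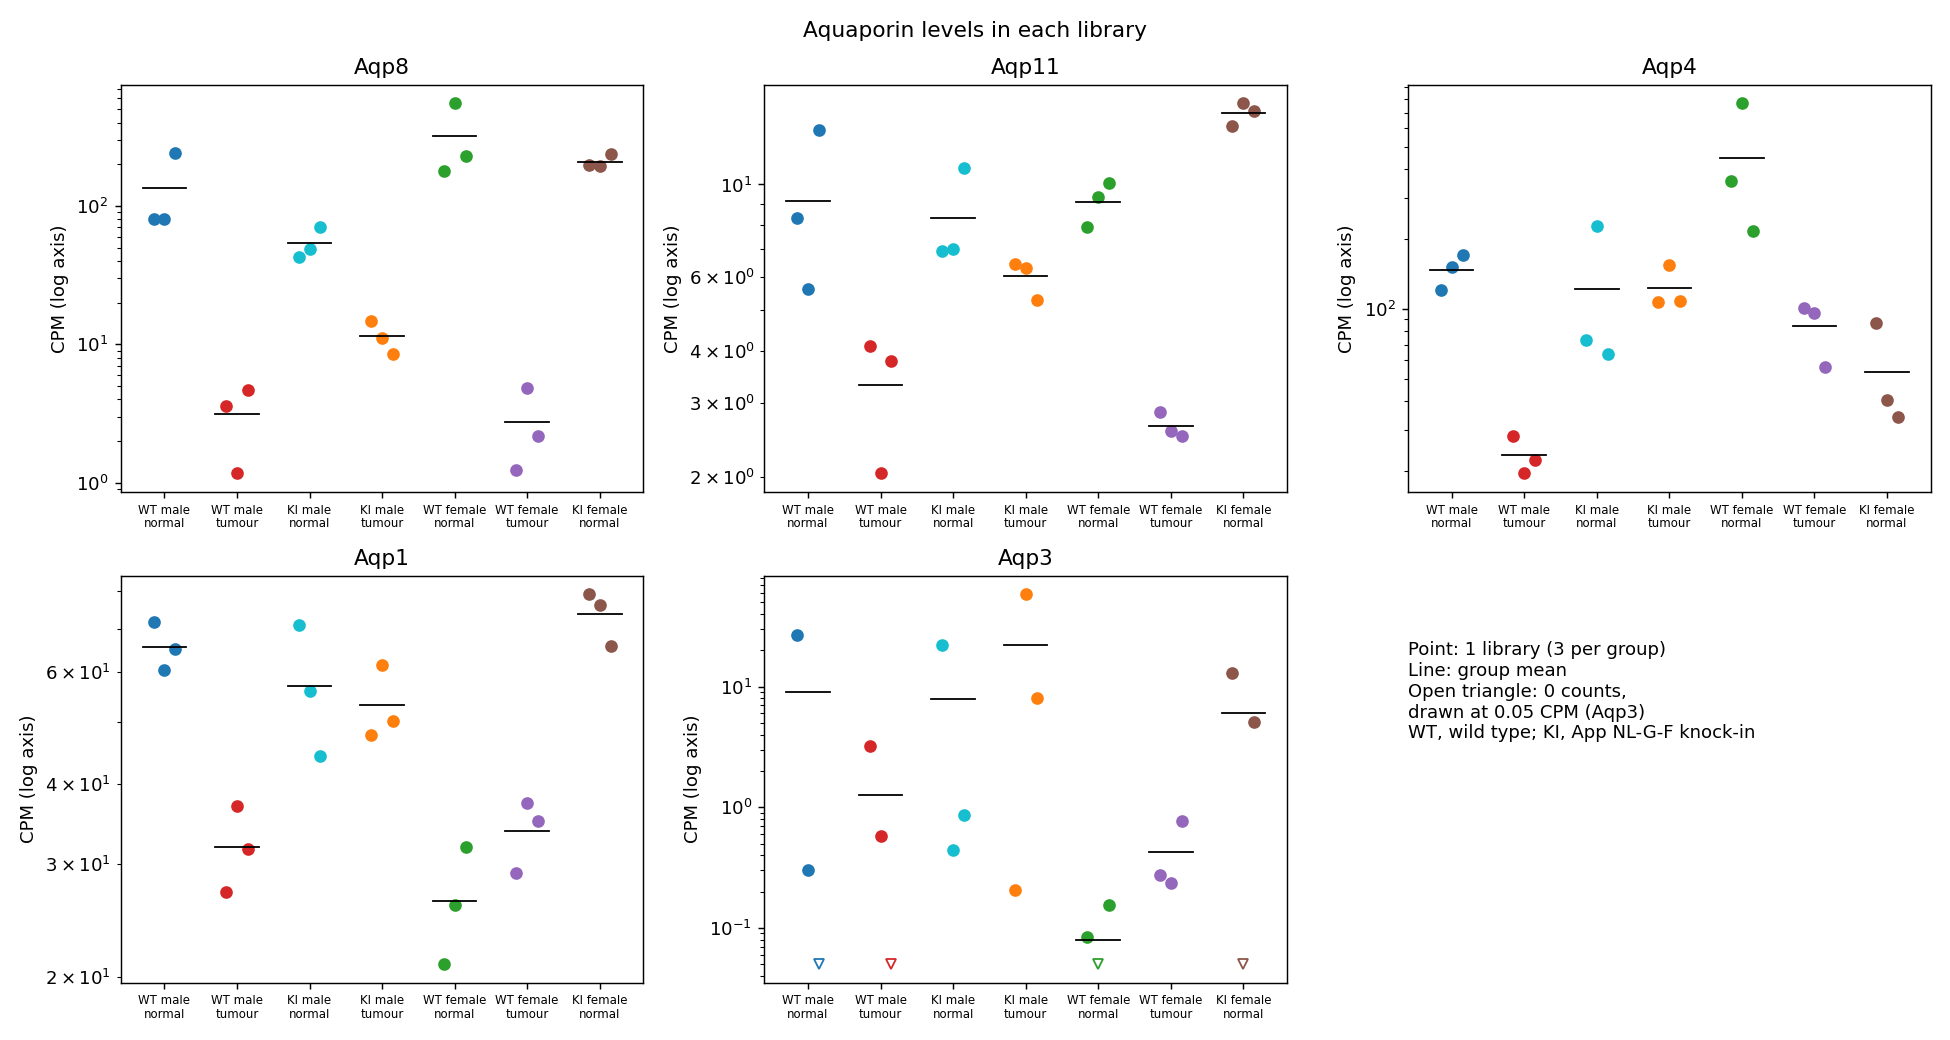
CPM on log axes of the 5 tested aquaporins in 21 libraries, with points for libraries, lines for the means of 3 libraries and open triangles for 0 counts. Tumours of wild-type males and females sit at the bottom of the Aqp8 and Aqp11 panels, and Aqp3 is spread within groups from 0 to 58.3 CPM.

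In wild-type females the same question gave 3 falls. Aqp8, Aqp4 and Aqp11 were lower in tumours, while Aqp1 did not pass the test, against 49.1% of all tested genes called in either direction and 24% as lower. With Aqp3, which was near the floor, 4 aquaporins had no overlap, against 58.4% of all tested genes. Aqp8 went from 179, 551 and 229 CPM in normal colon to 1.22, 4.80 and 2.17 CPM, a 115-fold fall with a log2 change of -6.85 ± 0.65 (edgeR adjusted p = 1.0e-06). No other aquaporin changed as far in any comparison that passed the test. Aqp4 stood at 356, 767 and 216 CPM in normal colon and at 101, 95.9 and 55.8 CPM in tumours (log2 change -2.41 ± 0.53, edgeR adjusted p = 0.00137). Normal replicate 2 was the highest library of both genes, and the groups did not overlap with or without it. Aqp11 was at 7.90, 9.34 and 10.07 CPM and then at 2.85, 2.57 and 2.50 CPM, the tightest tumour values of any aquaporin (log2 change -1.78 ± 0.30, edgeR adjusted p = 8.65e-05). Aqp1 was at 20.97, 25.9 and 31.9 CPM in normal colon and 29.1, 37.4 and 35.1 CPM in tumours, where the ranges overlapped and the log2 difference was 0.38 ± 0.18 (edgeR adjusted p = 0.088).

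In knock-in males a single aquaporin fell in tumours. Aqp8 was at 42.4, 48.9 and 70.5 CPM in normal colon and at 14.6, 11.1 and 8.52 CPM in tumours, a 4.70-fold fall without overlap (log2 change -2.23 ± 0.51, edgeR adjusted p = 0.00899). Across all tested genes 20.4% were called in either direction and 9.97% as lower. Aqp4 ran at 73.1, 227 and 64.1 CPM in normal colon and at 107, 154 and 108 CPM in tumours, so that the tumours lay between the normal libraries (log2 difference 0.02, 95% interval -1.05 to 1.08). Aqp1 was at 70.8, 56.0 and 44.3 CPM and at 47.7, 61.5 and 50.3 CPM, with full overlap and an interval of -0.46 to 0.26. Aqp11 was at 6.92, 7.03 and 10.98 CPM in normal colon and 6.47, 6.33 and 5.29 CPM in tumours. Its groups did not overlap, which made it the second such aquaporin where 33.6% of all tested genes had no overlap, and its log2 difference of -0.46 ± 0.27 did not pass the test (edgeR adjusted p = 0.236). Without the 7 libraries high in Krt5, which leaves 1 tumour and 2 normal libraries here, the log2 difference of Aqp8 was -2.05 (edgeR adjusted p = 0.28).

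Whether the tumour effect itself differed between the genotypes was tested as an interaction in males. No aquaporin passed after adjustment over all tested genes, of which 1.51% were called, and 4 of the 5 had an unadjusted p under 0.05, as did 25.2% of all tested genes. The differences of effect, knock-in minus wild-type, were 3.0 ± 0.77 for Aqp8 (edgeR adjusted p = 0.055), 0.95 ± 0.25 for Aqp1 (0.0548), 2.66 ± 0.73 for Aqp4 (0.0626) and 0.93 ± 0.40 for Aqp11 (0.158). DESeq2 called 3 of them (Aqp8, Aqp4 and Aqp1) and limma voom 2 (Aqp4 and Aqp1). For Aqp8 the 95% interval of the difference ran from 1.38 to 4.63 on the log2 scale.

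Tumours were also set against each other. Aqp4 and Aqp1 were higher in the knock-in tumours of males, where 14.5% of all tested genes were called in either direction and 9.3% as higher. The libraries of 4 aquaporins did not overlap, as was the case for 36.4% of all tested genes. Aqp4 was at 107, 154 and 108 CPM in the knock-in tumours and at 19.5 to 28.2 CPM in the wild-type tumours, a 5.21-fold separation (log2 difference 2.38 ± 0.54, edgeR adjusted p = 0.0137). Aqp4 is also a known water channel of skeletal muscle. Knock-in tumour 3, with 3239 CPM of muscle markers, had 108 CPM of Aqp4, and tumour 1, with 10.005 CPM of them, had 107 CPM. The part of muscle RNA in the Aqp4 levels was not tested. Aqp1 was 1.68-fold higher (log2 difference 0.75 ± 0.18, edgeR adjusted p = 0.0141). Aqp8, at 8.52 to 14.6 CPM against 1.16 to 4.70 CPM, and Aqp11, at 5.29 to 6.47 CPM against 2.04 to 4.10 CPM, did not overlap either, and missed the threshold (edgeR adjusted p = 0.0655 and 0.0694). In the authors' deposited table, the Aqp8 difference of 1.78 on the log2 scale has an adjusted p of 0.0188. The Aqp4 and Aqp1 calls depend on single libraries: without wild-type tumour 3, or without knock-in tumour 2, neither passed, and without wild-type tumour 1 Aqp1 did not. Without knock-in tumour 3 both passed. DESeq2, and a fit of only these groups, called Aqp8 as well. Without the 7 libraries high in Krt5, which leaves 1 knock-in tumour, Aqp4 was at 2.32 (edgeR adjusted p = 0.235) and Aqp1 at 0.45 (0.379).

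**Figure D3:**
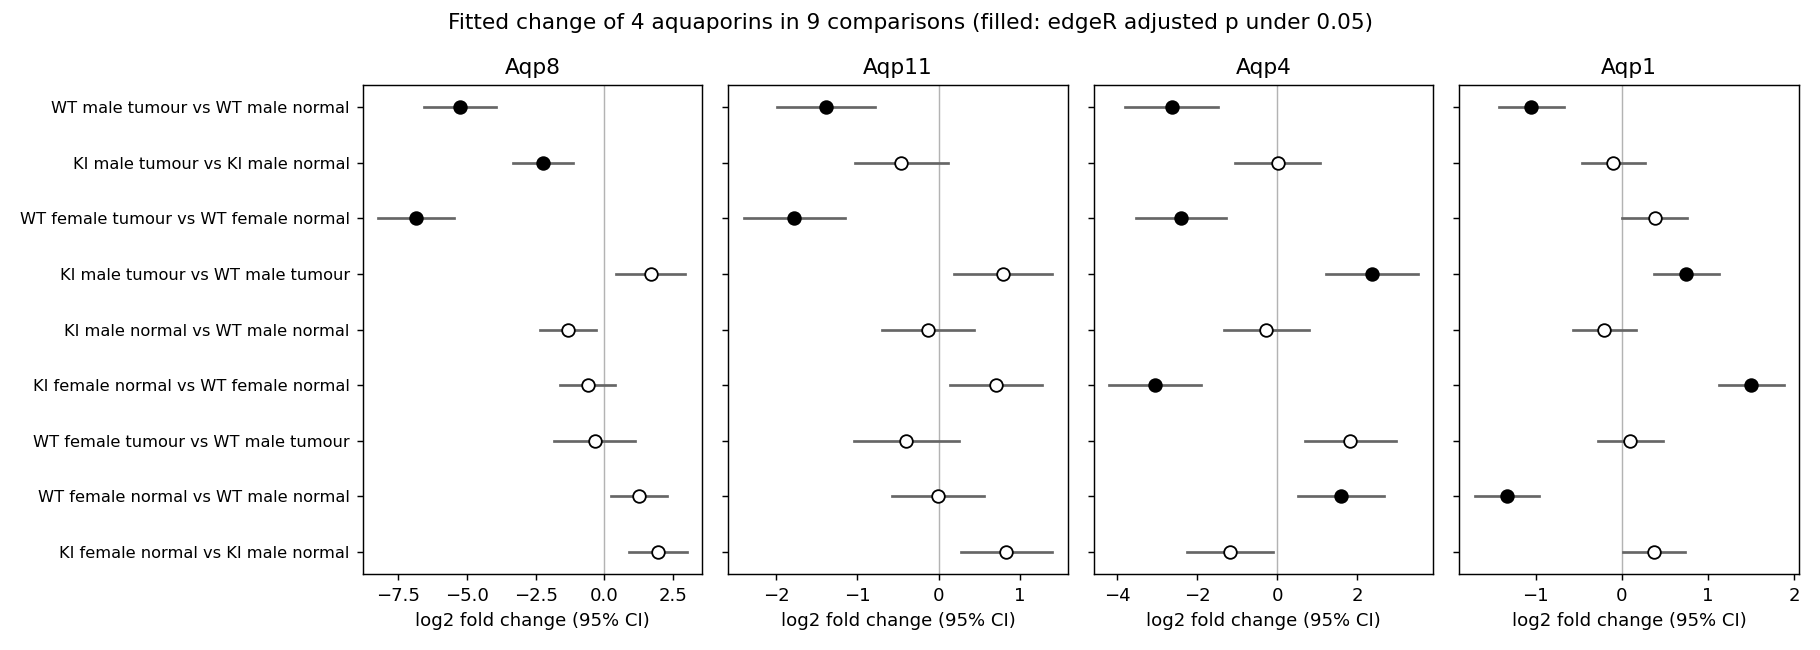
Log2 fold changes with 95% intervals (lines) of Aqp8, Aqp11, Aqp4 and Aqp1 in 9 comparisons, each panel with its own axis, and filled points for an edgeR adjusted p under 0.05. Aqp8 spans -6.85 to 1.96, and Aqp1 moves by at most 1.5 in size.

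Female and male wild-type tumours were compared directly too. No aquaporin passed, where 0.86% of all tested genes were called, and 1 had an unadjusted p under 0.05, against 21% of all tested genes. That gene was Aqp4, at 55.8 to 101 CPM in females and 19.5 to 28.2 CPM in males, the 1 aquaporin without overlap, against 31.2% of all tested genes (log2 difference 1.83 ± 0.53, edgeR adjusted p = 0.0831). DESeq2 and limma voom each called it, and the authors' deposited table has it at -1.83 for male against female tumours with an adjusted p of 0.0235. The 2 sexes' Aqp8 tumour levels overlapped, with a 95% interval of -1.83 to 1.11 for the log2 difference.

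Genotype effects in normal colon were looked for in each sex. In males no aquaporin passed, nor did almost any gene (0.0126% of those tested), and neither DESeq2 nor limma voom called an aquaporin. Aqp8 was the 1 aquaporin with an unadjusted p under 0.05 and without overlap (3.34% and 7.08% of all tested genes), at 42.4 to 70.5 CPM in knock-in and 79.8 to 243 CPM in wild-type males (log2 difference -1.31 ± 0.48, edgeR adjusted p = 1.00). In females, Aqp1 rose and Aqp4 fell with the knock-in, where 16% of all tested genes were called in either direction. With Aqp11, 3 aquaporins did not overlap, against 37.8% of all tested genes. Aqp1 was at 79.2, 76.2 and 65.7 CPM in knock-in (replicates 1, a and b) and at 20.97, 25.9 and 31.9 CPM in wild-type females. The knock-in libraries were all above the wild-type ones by a 2.83-fold difference of means in the fit (log2 change 1.5 ± 0.18, edgeR adjusted p = 6.09e-05). Aqp4 was at 86.4, 40.2 and 34.1 CPM in knock-in and 356, 767 and 216 CPM in wild-type females, an 8.30-fold fall (log2 change -3.05 ± 0.54, edgeR adjusted p = 0.00197). Without the 7 libraries high in Krt5, which leaves knock-in replicate a alone, Aqp4 was at -3.47 (edgeR adjusted p = 0.0862) and Aqp1 at 1.55 (0.00432).

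Aqp8 and Aqp11 did not pass in that female comparison. Aqp8 was at 197, 195 and 236 CPM in knock-in females, inside the wild-type range (log2 difference -0.61, 95% interval -1.62 to 0.39). Aqp11 was at 13.8, 15.6 and 15.0 CPM, above all wild-type females, with a log2 difference of 0.71 ± 0.27 (edgeR adjusted p = 0.0819). For Aqp1 the genotype effect differed between the sexes: the female minus male difference was 1.70 ± 0.25 on the log2 scale (edgeR adjusted p = 0.00249), in an interaction where 2.54% of all tested genes were called. For Aqp4 that difference was -2.78 ± 0.72 (edgeR adjusted p = 0.0542).

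The sexes were compared in normal colon of each genotype. Against wild-type males, Aqp1 was lower and Aqp4 higher in females, where 15.9% of all tested genes were called in either direction and 34.2% had no overlap. Aqp1 stood at 20.97 to 31.9 CPM in females and 60.3 to 71.6 CPM in males (log2 difference -1.33 ± 0.18, edgeR adjusted p = 0.000119). Aqp4 stood at 216 to 767 CPM against 120 to 171 CPM (log2 difference 1.60 ± 0.51, edgeR adjusted p = 0.0441). That Aqp4 call is close to the threshold and was lost without any of 5 single libraries (wild-type male normal 1, 2 or 3, wild-type female normal 1 or 2), and without female normal 2 the log2 difference was 0.96. In knock-in mice no aquaporin passed between the sexes, where 0.584% of all tested genes were called and 4 aquaporins had an unadjusted p under 0.05, against 15.3% of all tested genes. Aqp8 and Aqp11 had no overlap, against 19.7% of all tested genes. Aqp8 was nearest to the threshold, at 195 to 236 CPM in females and 42.4 to 70.5 CPM in males without overlap (log2 difference 1.96 ± 0.49, edgeR adjusted p = 0.0809). DESeq2 called Aqp8 and limma voom called Aqp8 and Aqp11, and the authors' deposited table gives Aqp8 an adjusted p of 0.0161. The tumour effect on Aqp1 also differed between wild-type females and males, by 1.43 ± 0.25 on the log2 scale (edgeR adjusted p = 0.0129), in an interaction where 1.12% of all tested genes were called. With a covariate for libraries numbered 152 or more it was 1.37, and without the 7 libraries high in Krt5 it was 1.28, neither past the threshold. The comparison of the sexes in wild-type normal colon, the genotype comparison in females and both differences in Aqp1 share the wild-type female normal libraries.

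Endothelial markers, and some fibroblast and smooth muscle markers, moved with Aqp1 between wild-type female normal colon and the normal colon of wild-type males or knock-in females. Of 12 markers, 11 were lower in wild-type female than in wild-type male normal colon, 10 were higher in the knock-in normal colon of females and 9 were higher in wild-type female tumours than in normal colon, against 15.9%, 16% and 49.1% of all tested genes called. The summed level was 105 to 143 CPM in wild-type female normal colon, 262 to 403 CPM in wild-type males and 274 to 305 CPM in knock-in females, with no marker at 0 throughout a group. Plvap, a protein of endothelial diaphragms, was at a mean of 6.23 CPM in wild-type females and 45.0 CPM in wild-type males (log2 change -2.85 ± 0.29, edgeR adjusted p = 1.2e-05). Of 7 fibroblast markers, 3 were lower and 3 higher in the first pair of comparisons, and of 10 smooth muscle markers 3 were lower and 5 higher. In wild-type female tumours, where Aqp1 was not called, the fibroblast sum was 1769 to 2845 CPM, against 1161 to 1409 CPM in normal colon. The smooth muscle sum went the other way, at 270 to 328 CPM in these tumours against 2222 to 5112 CPM in normal colon. Over 21 libraries Aqp1 ran with the endothelial sum at r = 0.53, with the fibroblast sum at 0.63 and with the smooth muscle sum at 0.62 (0.42, 0.57 and 0.38 with group means taken out). Their part in the Aqp1 results was not tested.

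In wild-type male tumours, where Aqp1 fell, the endothelial sum was 344 to 409.5 CPM, with 1 marker of 12 higher and 1 lower. Smooth muscle markers were lower there, 10 of 10, as were 5 of 8 markers of enteric glia, where 35.7% of all tested genes were called. The 4 haemoglobin genes of the red cell list, which are near-identical copies in pairs, were listed at 0 in all libraries. The other 3 genes of that list summed to 7.86 to 12.4 CPM in wild-type male normal colon and 15.9 to 32.6 CPM in tumours, and 1 of the 2 tested was higher. The part of these lists in the Aqp1 fall was not tested.

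Goblet cell markers moved with Aqp4 in some comparisons and not in others. Of 10 markers, 8 were lower in the knock-in normal colon of females, 6 were lower in wild-type male tumours, and 6 were lower and 1 higher in wild-type female tumours, against 16%, 35.7% and 49.1% of all tested genes called. The summed level was 24737 to 50036 CPM in wild-type female normal colon, 10629 to 11623 CPM in knock-in females and 12229 to 25045 CPM in wild-type males. Knock-in male tumours had 4 of the 10 lower than normal colon (20.4% of all tested genes were called), and the sum went from 16617 to 21578 CPM in normal colon to 5363 to 13322 CPM, while the log2 difference of Aqp4 was 0.02. In wild-type male tumours the sum was 3162 to 4423 CPM. Over 21 libraries Aqp4 ran with the goblet sum at r = 0.74, and at 0.18 with group means taken out. Markers of small intestine and proximal colon summed to 866 to 1196 CPM in wild-type female normal colon. That sum was 403 to 554 CPM in knock-in female and 411 to 592 CPM in wild-type male normal colon. It ran with Aqp4 at r = 0.68 (0.17 with group means taken out), and the distal colon sum did at 0.03. The part of goblet and regional markers in the Aqp4 results was not tested.

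Aqp3, the aquaglyceroporin of epithelia, varied more within groups than between them. Its raw counts were 571, 4 and 0 in wild-type male normal colon and 45, 2 and 0 in wild-type male tumours. They were 237, 7 and 10 in knock-in male normal colon and 3, 986 and 82 in knock-in male tumours. A single library carried most of the reads in each of these 4 groups. Wild-type females had 2, 0 and 1 counts in normal colon and 2, 2 and 7 in tumours, and knock-in females had 216, 0 and 67. All 3 wild-type female normal libraries were at or under the floor, so no fold against them is given. Aqp3 passed the edgeR test in none of the 12 comparisons. It passed in 2 with DESeq2, knock-in against wild-type female normal colon and wild-type female against male normal colon, and the authors' deposited table gives these an adjusted p of 0.0435 and 0.0227.

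The libraries with Aqp3 were those with squamous markers. Aqp3 was at 3.24 to 58.3 CPM in the 7 libraries with Krt5 over 100 CPM and at 0 to 0.864 CPM in the other 14, a split chosen after the values were seen. On the log2 scale, Aqp3 ran with the summed squamous markers over the 21 libraries (Pearson r = 0.87), and also after the group means were taken out (r = 0.95). These points share the library and its depth. Of 9 squamous markers 7 were tested, and Sprr1b was at 0 throughout several groups. Whether the colon epithelium itself added to the Aqp3 reads of those 7 libraries was not tested.

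**Figure D4:**
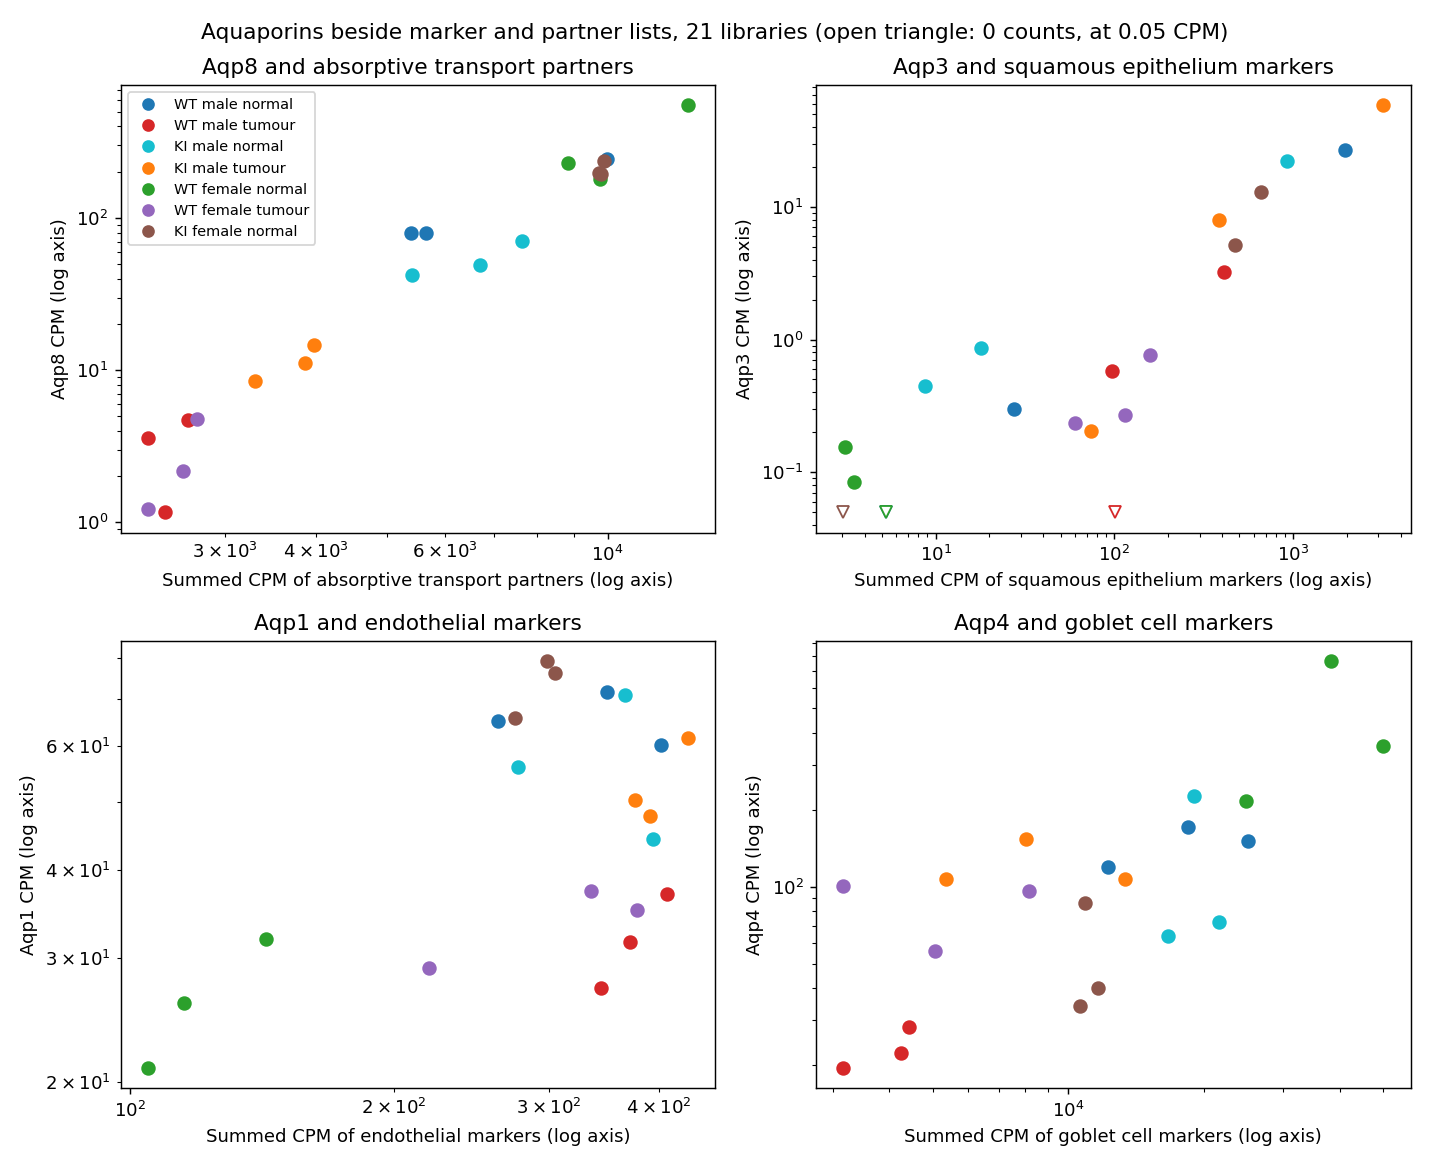
CPM of an aquaporin (log axis) against the summed CPM of a gene list (log axis) in 21 libraries, coloured by group, with open triangles for 0 counts. Aqp8 rises along its absorptive partners through all groups, Aqp3 is high in the 7 libraries rich in squamous markers, and wild-type female normal colon stands at the low end of the endothelial axis with Aqp1 at 20.97 to 31.9 CPM.

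Aqp5 and Aqp7 stayed below the filter. Aqp5 had 64 of its group's 78 counts in knock-in male tumour 3, beside 5 and 9 in the other tumours and 0, 4 and 2 in knock-in male normal colon. The authors' deposited table gives that contrast a log2 fold change of 4.01 with an adjusted p of 0.024. Markers of pancreatic and salivary acinar cells summed to 73.8 CPM in that library and to 67.0 and 80.0 CPM in the other knock-in tumours. Their sum was 165 to 177 CPM in knock-in male normal colon. A gland source of the Aqp5 counts was not tested. Aqp7 counts gave no group more than 19 in all. Of the other mouse aquaporins, Aqp6 was at 0 in every library, which allows at most the floor of 3 counts each, Mip and Aqp12 had at most 5 counts in a library, and Aqp2 had 15 in knock-in male normal 2 and at most 2 elsewhere. Aqp9 passed the filter with 0 to 11 counts in 20 libraries and 75 in knock-in female normal b. It was called higher in wild-type female tumours (edgeR adjusted p = 0.0428) and knock-in female normal colon (0.0178) than in wild-type female normal colon, whose libraries had 0, 1 and 0 counts, so no fold is given.

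Each aquaporin kept its own order of groups. For Aqp8 the order was wild-type female, knock-in female, wild-type male and knock-in male normal colon, then knock-in male, wild-type male and wild-type female tumours. Its libraries overlapped between neighbours at 3 places, within the first 3 groups and between the last 2. For Aqp11 knock-in female normal colon came first, with its lowest library at 13.8 CPM and the highest of any other group at 13.5 CPM. The other 3 normal groups overlapped. By mean, knock-in male tumours lay between them and the overlapping wild-type tumours. At 5.29 to 6.47 CPM these knock-in tumours overlapped wild-type male normal colon, whose lowest library was at 5.62 CPM. For Aqp1 the ranking fell into an upper set of 4 groups, knock-in female, wild-type male and knock-in male normal colon and knock-in male tumours, whose neighbours overlapped, and a lower set of wild-type female tumours, wild-type male tumours and wild-type female normal colon. For Aqp4 wild-type female normal colon came first and wild-type male tumours last, and the 5 groups between overlapped with their neighbours. Knock-in male normal 2, at 227 CPM, lay above the lowest wild-type female normal library at 216 CPM.

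Among the aquaporins themselves, Aqp8 and Aqp11 ran closest together over the 21 libraries (r = 0.91 of log2 CPM, and 0.67 with group means taken out). Aqp8 and Aqp4 gave r = 0.53, and Aqp8 and Aqp1 r = 0.32. Of 14596 other genes, those most like Aqp8 were Car4, a membrane carbonic anhydrase, Ces2c, a carboxylesterase, and Slc26a3, the apical chloride-bicarbonate exchanger, each at r = 0.99. Most like Aqp11 were Acaa2, an enzyme of mitochondrial fatty acid oxidation, Naaladl1, a peptidase, and Cipc, at 0.94 to 0.95. Aqp4 was most like C1galt1c1, a chaperone of O-glycan synthesis, Arl1, a Golgi GTPase, and Cd38 (0.91 to 0.93). Aqp1 was most like Gypc, Fgfr1 and Gjc1 (0.90 to 0.93), which encode glycophorin C, a fibroblast growth factor receptor and a connexin. Aqp3 was most like Lgals7, a galectin of stratified epithelia, Tmprss11bnl and Lypd2 (0.94 to 0.95). The points of these correlations share libraries and depth. By Spearman's rho, a correlation of ranks, 2 of the 3 genes stayed for Aqp1 and 1 of 3 for each other aquaporin. With group means taken out, Aqp11 ran at r = 0.55 with Acaa2 and with Cipc, and at 0.86 with Naaladl1.

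The transporters that build the gradient for water fell with Aqp8. Of 20 genes of absorptive ion and water transport, 18 fell in wild-type male, 12 in knock-in male and 19 in wild-type female tumours, and none rose, where 19.3%, 9.97% and 24% of all tested genes were called as lower. The median log2 change of the list was -2.01, -0.80 and -2.36, beside 0.01 for all tested genes each time. Car4 fell from a mean of 358 to 9.65 CPM in wild-type males (log2 change -5.10 ± 0.59, edgeR adjusted p = 2.0e-05), from 239 to 31.6 CPM in knock-in males (-2.91 ± 0.52, 0.00279) and from 816 to 7.72 CPM in wild-type females (-6.73 ± 0.63, 8.76e-07). Slc26a3 had log2 changes of -4.95, -2.14 and -6.40 in the same order. Slc5a8, a sodium-coupled carrier of short-chain fatty acids, had log2 changes of -3.81, -1.33 (edgeR adjusted p = 0.0497) and -3.93. In knock-in against wild-type male tumours 8 of the 20 were higher and none lower. Of all tested genes, 14.5% were called there in either direction and 9.3% as higher. Slc5a8 was higher by 2.02 ± 0.48 (edgeR adjusted p = 0.0157). Over 21 libraries Aqp8 followed the summed list with r = 0.98, and r = 0.74 with group means taken out. Other sums ran with Aqp8 too, such as acinar (0.97), small-intestinal and proximal (0.92), adipocyte (0.91) and smooth muscle markers (0.87). With group means taken out these were 0.56, 0.39, 0.33 and 0.13. The fibroblast (-0.37) and endothelial sums (-0.52) ran the other way.

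Surface colonocyte markers moved with Aqp8 as well, and Slc26a3 and Car4 belong to both lists. Of 10 tested markers, 8 fell in wild-type male, 6 in knock-in male and 9 in wild-type female tumours. The shares of all tested genes called as lower were 19.3%, 9.97% and 24%. Their summed level was 7993 to 11580 CPM in wild-type male normal colon and 3231 to 3772 CPM in tumours, and 12392 to 18183 CPM against 3192 to 4727 CPM in wild-type females. Smooth muscle markers fell too, 10 of 10 in each tumour comparison, beside the shares of all tested genes called as lower given above. Their part in the Aqp8 result was not tested.

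In the other pathways around the aquaporins, members were called in both directions. The share of all tested genes called in either direction was 35.7% in wild-type male, 20.4% in knock-in male and 49.1% in wild-type female tumours, and the counts of the last 2 lists lie near or below it, except for 8 of 12 regulators in wild-type females. Of 13 genes of chloride secretion, 6 fell and 1 rose in wild-type male tumours, 4 fell in knock-in males, and 7 fell and 2 rose in wild-type females. Best2, a bicarbonate channel of goblet cells, fell in all 3, with log2 changes of -2.83, -2.09 and -3.50, and Slc26a9, an anion transporter, rose by 2.56 in wild-type males. Of 11 tested genes of glycerol handling, the partners of Aqp3 and Aqp7, 2 rose and 2 fell in wild-type male tumours, 1 and 1 in knock-in males and 2 and 2 in wild-type females. Mgll, the monoglyceride lipase, fell in all 3, with log2 changes of -1.67, -1.09 and -0.99. Of 12 tested osmotic and vasopressin-cAMP regulators, 3 rose and 2 fell, 1 rose, and 6 rose and 2 fell, in the same order. Slc5a3, the myo-inositol carrier that cells use against high osmolarity, fell in wild-type male (log2 change -1.26) and wild-type female tumours (-2.14), and Slc38a2, an osmotically induced amino acid carrier, rose by 0.44 in wild-type male and 0.53 in knock-in male tumours.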

How the data were processed

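Per the labels' protocols, ribosomal RNA was removed from total colon RNA by an RNase H kit, cDNA was primed at random and libraries were read on an Illumina NovaSeq. The submitters' processing notes name Trimmomatic, HISAT2, featureCounts, DESeq2 and the build mm10, without versions. The annotation and the strand setting are not given in the sources used here, so genes that overlap or have near-identical copies are uncertain. The deposited table holds raw counts for 24062 genes. A second deposited table gives the authors' log2 fold changes and their adjusted p-value for pairs of groups, and was used only to print those values. Groups came from the labels. In the count table, 2 knock-in female normal columns share a header and were used as unnumbered replicates a and b beside replicate 1.

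The 7 aquaporins, the marker lists and the partner lists were chosen with earlier results of these data known. All 21 libraries entered 1 fit of edgeR 4.0.16 (R 4.3.3; quasi-likelihood F test, two-sided, TMM scaling, filterByExpr by group, robust, 1 coefficient per group), with 9 comparisons and 3 differences of effects, Benjamini-Hochberg adjustment over 15936 genes and a threshold of 0.05. Likeness is Pearson's r of log2 CPM with a prior count of 2, taken over 21 libraries, for the 3 highest genes of each aquaporin. Partner genes named are at most 3 per list and comparison, those with the largest change past the threshold, with their values repeated in other comparisons. Slc5a8 in knock-in against wild-type tumours follows the same rule. Per-kilobase values use the longest GENCODE M21 transcript. Promoters are RefSeq windows of 250 bases, and 3 of 3 genes sought were matched. Wild-type male tumour and normal libraries of the same replicate number deviated together (r = 0.169, 0.174 and 0.215). This was the only comparison examined with r over 0.1 in each pair. Libraries of different numbers were not correlated, so these values do not show that the numbers pair libraries. The fit was tested on simulated counts. Alternatives were other scalings and filters, DESeq2 1.42.0, limma 3.58.1 voom, only the compared groups, the replicate block, GC and length offsets, a covariate for libraries numbered 152 or more, the omission of each replicate and, chosen after seeing the data, of 7 libraries with Krt5 over 100 CPM. Library totals of 3414123 to 26174008 counts set the precision of low genes.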

Additional observations from a re-analysis of the deposited data

Results flagged for a closer look

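The effect on Aqp1 differed between the sexes in 2 tests of the difference itself. The genotype effect in normal colon was 1.70 larger on the log2 scale in females than in males (edgeR adjusted p = 0.00249), with Aqp1 at 65.7 to 79.2 CPM in knock-in and 20.97 to 31.9 CPM in wild-type females, and overlapping ranges in males. The tumour effect was 1.43 larger in wild-type females than in wild-type males (edgeR adjusted p = 0.0129), with a fall in males and no call in females. That call was lost with a covariate for libraries numbered 152 or more (1.37, edgeR adjusted p = 0.0622) and without the 7 libraries high in Krt5 (1.28, edgeR adjusted p = 0.152). Both differences use the 3 wild-type female normal libraries, in which Aqp1 and the endothelial markers were low.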

How the results depend on the processing

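No aquaporin that passed the test turned its direction under any alternative run. Over single aquaporin values with all replicates kept, 582 kept direction and side of the threshold, 25 newly passed it and 6 no longer did. Another 11 changed direction and passed the threshold in neither fit. With a replicate left out these were 406, 12, 10 and 22. The counts of aquaporins called in tumours against normal colon were 4 in wild-type males and 3 to 4 in wild-type females throughout, and 1 in knock-in males except that Aqp5 joined without a low-count filter (2 called). Between knock-in and wild-type male tumours the count ran from 0 to 2 as single replicates were left out, and was 3 without a low-count filter (Aqp5 added), with DESeq2 and with only the compared groups (Aqp8 added). Between knock-in and wild-type female normal colon it was 3 with DESeq2 (Aqp3 added), with limma voom and with only the compared groups (Aqp11 added). Between female and male wild-type tumours it was 1 with DESeq2, with limma voom and with a fit of only the compared groups. Between female and male wild-type normal colon it was 1 with library totals as scaling, without a low-count filter, with only the compared groups, with GC and length offsets, alone or with the replicate block, 3 with DESeq2 (Aqp3 added) and with limma voom (Aqp8 added), and 1 to 2 with a replicate left out. Between knock-in females and males it was 1 with DESeq2, 2 with limma voom and 1 with only the compared groups. The difference of the tumour effect between genotypes gave 1 with a mean of at least 50 counts, 3 with DESeq2, 2 with limma voom and 0 to 3 with a replicate left out. The difference of the tumour effect between the sexes gave 0 with the covariate for libraries numbered 152 and above. The difference of the genotype effect between the sexes gave 2 with a mean of at least 50 counts, with DESeq2 and with limma voom, and 1 to 2 with a replicate left out. Without the 7 libraries with Krt5 over 100 CPM, chosen after seeing the data, the count was 0 for knock-in male tumours against normal colon and against wild-type tumours, 1 for knock-in against wild-type female normal colon, 1 for wild-type female against male normal colon and 0 for the difference of the tumour effect between the sexes. That setting leaves 14 libraries and 1 library in 2 groups, each assumed to vary like the others. For the rest the cause was not tested. With the replicate number as a block, fitted on 18 numbered libraries of 6 groups, the count was 4 in wild-type males and no count of called aquaporins changed. No paired analysis was possible for comparisons with knock-in female normal colon because 2 of its columns carry no number of their own. Depth limits Aqp5 and Aqp7, with at most 9 counts in nearly all libraries.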
